A study of Homo sapiens with 6 samples.

Results

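MIR205 is the gene of the microRNA miR-205, and MIR205HG is the long non-coding transcript that contains it. Their levels were followed in SUM159 oncospheres, together with the genes that surround miR-205 and the transcription factor p63. SUM159 is an established human breast cancer cell line, and oncospheres are floating cell clusters grown on ultra-low attachment plates. The cells carried either the pLVX-puro empty lentiviral vector (control, 3 arrays) or pLVX-puro-hSCGB3A1 (SCGB3A1, 3 arrays), which encodes the small secreted protein SCGB3A1. Both groups went through 7 days of puromycin selection at 2 µg/ml, were seeded at 12500 cells/ml and cultured for 5 days, and 100 ng of total RNA was labelled for each array. The probe sets were taken from the array annotation by the symbols MIR205, MIR205HG and TP63. There were 2 among 54613 tested, 1 for MIR205 and 1 for MIR205HG, and each listed a single symbol. No probe set was listed under TP63, the gene of p63, in the annotation used here, so TP63 itself was not analysed here. The locus was chosen on the measured difference between these same groups, so its own values are described below without a test.

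miR-205 is a microRNA of basal and stratified epithelium. A microRNA is cut from a hairpin in a longer transcript and then guides a silencing complex to messenger RNAs that pair with its seed, the bases near its 5′ end. Among its known targets are ZEB1 and ZEB2, repressors of the epithelial state. p63 belongs to the p53 family and maintains basal cells of epidermis and mammary gland, where it activates keratins, laminins and adhesion genes, and the MIR205 locus is among the genes it is known to act on.

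The sequences are shown because they define what the locus makes. In the RefSeq gene table (GRCh38.p14), MIR205HG spans 3730 bases of chromosome 1, from 209428820 to 209432549 on the plus strand. The MIR205 hairpin of 110 bases lies inside it at chr1:209432133-209432242, and 307 bases of the host follow it. In the mature strands, the seed (bases 2 to 8) is in capitals. In the hairpin, the capitals mark the mature strands.
hsa-miR-205-5p: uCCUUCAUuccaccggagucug
hsa-miR-205-3p: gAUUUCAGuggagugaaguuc
MIR205 hairpin: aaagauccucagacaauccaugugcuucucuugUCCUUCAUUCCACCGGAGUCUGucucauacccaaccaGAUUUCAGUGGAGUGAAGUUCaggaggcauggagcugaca

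Neither seed was shared with another entry among 2545 mature human sequences in the table, and the same held for bases 2 to 7 alone. miR-205 therefore had no relative by seed in that table. Arrays of this type are made for polyadenylated transcripts, so the MIR205 probe set may read the host transcript rather than the mature microRNA, and levels of miR-205 itself were not analysed here.

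The array values are on the log2 scale after robust multiarray averaging, in which a difference of 1 is a doubling of signal. The brightness of different probe sets cannot be compared as amounts of RNA. The vector's own gene was not higher: control arrays gave 6.91 ± 0.13 (SD, n = 3) for SCGB3A1, and those carrying the SCGB3A1 vector gave 6.74 ± 0.16 (SD, n = 3), with a limma adjusted p = 0.83. Whether that probe set covers the vector's insert is unknown, so group names are those of the labels. Control replicate 2 stood apart on the first principal component, at 30.7 against -16.1 to 6.13 for the other arrays.

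MIR205 was higher in every SCGB3A1 array than in every control array. It read 7.73, 7.48 and 7.82 in control replicates 1 to 3, a mean of 7.68 ± 0.17 (SD, n = 3). It read 8.42, 8.43 and 8.28 in SCGB3A1 replicates 1 to 3, a mean of 8.38 ± 0.08 (SD, n = 3). The lowest SCGB3A1 array lay 0.47 above the highest control, a gap wider than the range of 0.34 within control and of 0.14 within SCGB3A1. The difference was 0.70 ± 0.09 (SE; 95% interval 0.50 to 0.90), which is 1.62-fold in linear terms. The lowest control value came from control replicate 2, and without that array the difference was 0.60.

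MIR205HG was also higher, by a smaller amount. It read 6.66, 6.73 and 6.65 in the control arrays, a mean of 6.68 ± 0.045 (SD, n = 3). It read 7.20, 7.02 and 6.85 in the SCGB3A1 arrays, a mean of 7.02 ± 0.18 (SD, n = 3). The groups did not overlap, with a gap of 0.12 between them, but the SCGB3A1 arrays spread over 0.35. The difference was 0.34 ± 0.09 (SE; 95% interval 0.15 to 0.54), or 1.27-fold. Without SCGB3A1 replicate 1, the highest array, it was 0.25, and without SCGB3A1 replicate 3 it was 0.43. The mean of this probe set over all arrays, 6.85, lay below the median of all probe sets, 6.91, and in this dim range the normalization draws fold changes towards zero. The study lists MIR205HG in the SCGB3A1 signature it chose on these samples. Its threshold there is a log2 difference of 0.5, which the probe set named MIR205HG here did not reach, and which probe set carries the name in that list is not given in the sources used here.

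Over all probe sets, 5.95% had their 3 SCGB3A1 arrays above all 3 controls, and the 2 probe sets of the locus are in that share by the choice that brought them here. By size of the difference, MIR205 ranked 5 and MIR205HG ranked 90 from the top of 54613. The probe sets did not move by equal amounts. MIR205 exceeded MIR205HG by 1.07, 0.75 and 1.17 in the control arrays and by 1.22, 1.41 and 1.44 in the SCGB3A1 arrays. That excess was wider by 0.36 on average in SCGB3A1, as follows from the larger difference of MIR205. The lowest SCGB3A1 value, 1.22, lay only just above the highest control value, 1.17. Both probe sets were chosen on these same values, so this excess is a description and no separate result. Control replicate 2 had the smallest excess, with the lowest MIR205 and the highest MIR205HG of its group.

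**Figure D1:**
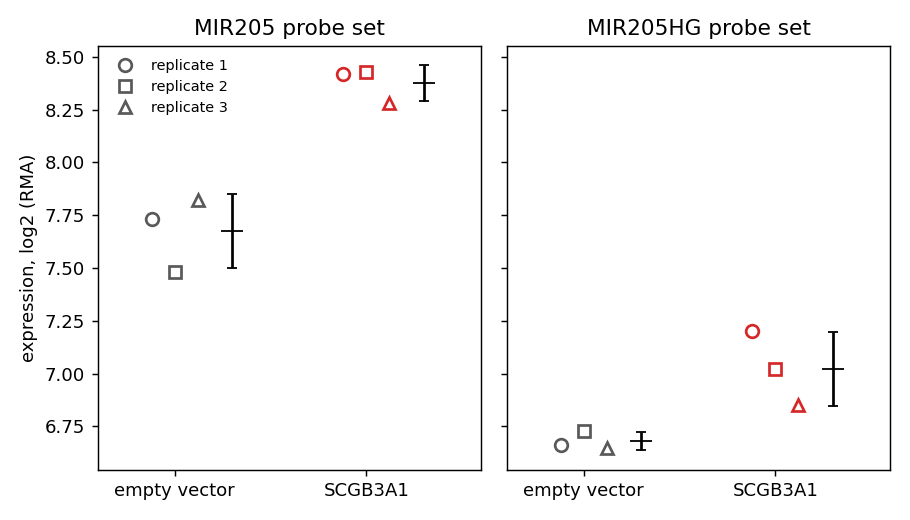
Log2 expression of the MIR205 and MIR205HG probe sets (vertical axis) in each array, grey for empty vector and red for SCGB3A1, with a symbol for each replicate number and black marks giving each mean with its SD (n = 3). MIR205 lies at 7.48 to 7.82 in control and 8.28 to 8.43 in SCGB3A1, and MIR205HG shows a smaller step with more spread in SCGB3A1.

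The promoter of MIR205HG is shown to describe the locus. Whether the higher readings came from transcription at this start was not tested. It covers 250 bases before and 50 after the start of the gene, on the plus strand of GRCh38.p14 at chr1:209428570-209428869. Capitals mark the motifs found.
MIR205HG promoter: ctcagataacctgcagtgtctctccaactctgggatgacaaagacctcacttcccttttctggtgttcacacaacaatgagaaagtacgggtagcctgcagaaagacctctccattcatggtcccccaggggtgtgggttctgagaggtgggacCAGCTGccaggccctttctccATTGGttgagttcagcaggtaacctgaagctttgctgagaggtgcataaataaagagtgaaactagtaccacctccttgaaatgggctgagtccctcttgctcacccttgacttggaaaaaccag

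Each motif was searched on both strands in 35116 promoters of the same length. An E-box, CANNTG, was found once, as CAGCTG at bases -96 to -91 from the start, and 68.7% of promoters hold an E-box. A CCAAT box was found once, on the minus strand at -75 to -71, and 34.6% of promoters hold one. There was no match to TATAAA (11.5% of promoters), to the ZEB-type E-box CACCTG (20.6%), which overlaps CANNTG, or to the p53 family decamer (6.63%). Only full matches were counted, and near matches, such as cataaa in this promoter, were not. A motif match is a description of letters and says nothing on binding in these cells.

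Along the chromosome, the nearest gene after the locus with a probe set of its own here was also higher. This was LAMB3, a chain of laminin-332 in the epithelial basement membrane and a known p63 target. It lies 182.3 kb after the end of MIR205HG, and genes without a probe set of their own were not considered. It read 8.64, 8.44 and 8.51 in control and 9.00, 8.92 and 8.90 in SCGB3A1, so the groups did not overlap. The difference was 0.41 ± 0.08 (SE), which did not pass over all probe sets (limma adjusted p = 0.29). The next genes on that side, 228.8 to 323.5 kb away, were HSD11B1-AS1 (0.09), G0S2 (0.07), HSD11B1 (0.10) and TRAF3IP3 (-0.02). On the other side stood ATP5MC2P1 (-0.03) at 160.5 kb. Much further off, at 1184.4 to 1633.3 kb, were PLXNA2 (0.11), CD34 (0.04), LOC148696 (-0.01) and CD46 (-0.11). Each value is from the gene's brightest probe set, and in all 9 of these genes the groups overlapped. That is the common case, as 7.09% of all genes lay above all controls and 5.24% below. The other probe sets of PLXNA2 read -0.11 and -0.06, and those of CD46 read 0.22 and 0.00.

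**Figure D2:**
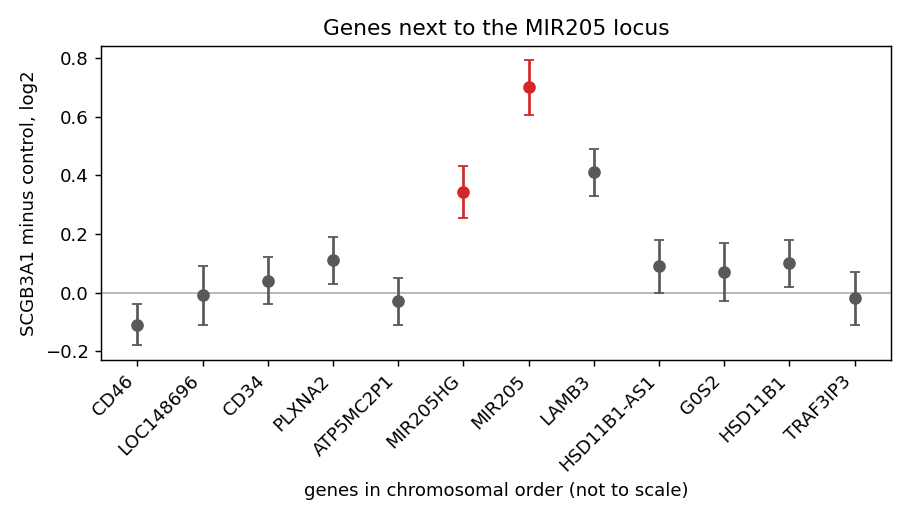
Difference between SCGB3A1 and control on the log2 scale (vertical axis, error bars 1 SE) for the genes on either side of the MIR205 locus in chromosomal order, locus in red. LAMB3, at 0.41, is the neighbour that stands away from zero, and the others lie between -0.11 and 0.11.

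Among known p63 target genes, more were higher than lower in the SCGB3A1 arrays. Of 40 listed genes, 37 were measured. Of these, 0 passed adjusted p 0.05 in limma over all probe sets, against 0.0354% of all 19775 genes. At an unadjusted p under 0.05, 13 were higher and 1 lower, where 3.93% of all genes were higher and 2.89% lower. The 3 SCGB3A1 arrays lay above all controls in 15 and below in 1, against 7.09% and 5.24% of all genes. The median difference was 0.11, beside 0.01 over all genes. The higher genes include keratins already known to differ here, so the list is not independent of what was seen before.

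The p63 targets with the smallest p were KRT5, CLCA2, LAMB3 (0.41) and KRT14. KRT5, a basal keratin, read 11.85, 11.72 and 12.11 in control and 12.43, 12.48 and 12.47 in SCGB3A1 (0.56 ± 0.09 SE, limma adjusted p = 0.17). CLCA2, an adhesion-linked membrane protein, read 11.84, 11.76 and 11.86 in control and 12.27, 12.29 and 12.18 in SCGB3A1 (0.42 ± 0.07 SE, limma adjusted p = 0.18). The groups were apart for both genes. KRT14, the partner of KRT5, read 9.52, 9.18 and 9.60 in control and 9.97, 9.88 and 10.15 in SCGB3A1 (0.56 ± 0.11 SE, limma adjusted p = 0.29). KRT14 shares sequence with other keratins, so its reading is uncertain. Of the rest, FAT2, a cadherin, read 0.43, TRIM29 0.34, FGFR3 0.34, the P-cadherin gene CDH3 0.31 and the protease inhibitor CSTA 0.31. EGFR, the receptor of epidermal growth factor, was the member lower at an unadjusted p under 0.05 by its brightest probe set, at -0.24. Other classical targets read close to zero, among them the integrins ITGA6 (-0.05) and ITGB4 (0.03), SERPINB5 (0.06) and S100A2 (0.05). DST, a linker of hemidesmosomes, read -0.06 for its brightest probe set and -0.25 for a dimmer one, which had an unadjusted p under 0.05.

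Relatives, partners and regulators of p63 gave a median of -0.05. Of 25 listed, 23 were measured, 0 passed adjusted p 0.05, and at an unadjusted p under 0.05, 1 was higher and 1 lower, against 3.93% and 2.89% of all genes. The groups did not overlap in 2 higher and 5 lower genes, against 7.09% and 5.24%. KLF5, a Krüppel-like factor of basal epithelium, was the higher gene (0.22), and KMT2D was the lower gene (-0.18). The smallest p belonged to a probe set of CDK12 (-0.21), whose brightest probe set read -0.11. ITCH, a ubiquitin ligase that degrades p63, read -0.30 for a dimmer probe set and -0.02 for its brightest. HIPK2, a kinase acting on the p53 family, read -0.27 and -0.15 likewise. In ITCH, CDK12 and HIPK2 the choice of probe set thus set the size of the difference.

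Known targets of miR-205 were spread around zero. Of 24 listed genes, 23 were measured, 0 passed adjusted p 0.05 in limma, and at an unadjusted p under 0.05, 3 were lower and 1 higher, against 2.89% and 3.93% of all genes. The groups did not overlap in 3 lower and 2 higher genes, against 5.24% and 7.09%. The median was -0.03, and without control replicate 2 it was 0.004. YES1, a kinase of the SRC family, read 10.80, 11.05 and 10.92 in control and 10.42, 10.54 and 10.76 in SCGB3A1 (-0.35 ± 0.10 SE, limma adjusted p = 0.70). ZEB1 read 10.28, 10.51 and 10.32 in control and 10.12, 10.11 and 10.13 in SCGB3A1 (-0.25 ± 0.08 SE, limma adjusted p = 0.72). Both were lower in all SCGB3A1 arrays, by gaps smaller than the range of the controls. SMAD1, a mediator of BMP signalling, read -0.24 with overlapping groups. A probe set of MED1 read -0.19, while the brightest of that gene read 0.02. Dimmer probe sets of HMGB3 (0.18) and PRKCE (0.17) went the other way, and the brightest of those genes read 0.14 and 0.01. TP53INP1 read 0.19, and ZEB2 (-0.17), ERBB3 (-0.04), VEGFA (-0.03) and E2F1 (0.11) had unadjusted p-values above 0.05.

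**Figure D3:**
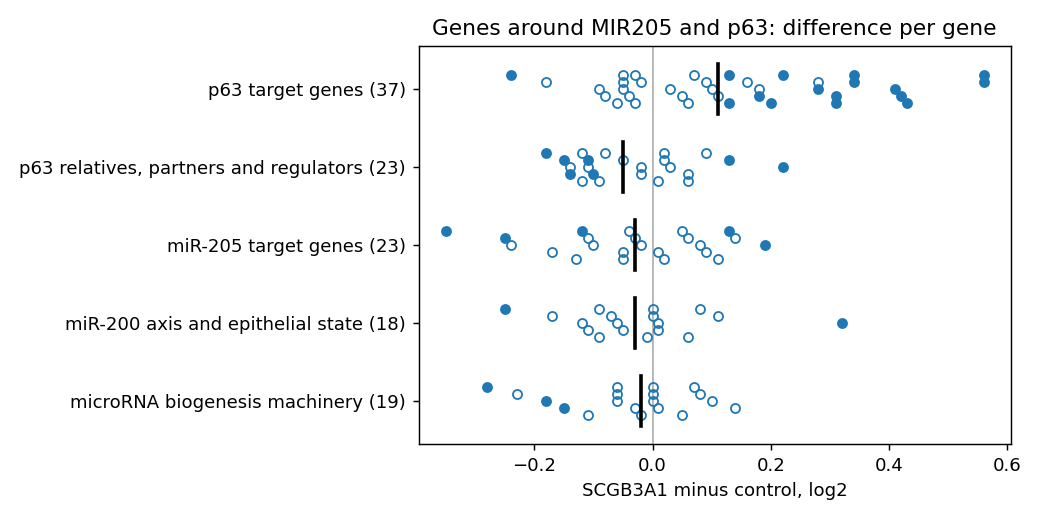
Difference between SCGB3A1 and control (horizontal axis, log2) for each gene of 5 lists, by the gene's brightest probe set, with the number measured in brackets, filled circles where the arrays of the groups do not overlap and black bars for the list median. The p63 targets spread to the right, with a median of 0.11, and the medians of the other lists lie between -0.05 and -0.02.

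The regulators that set the epithelial state together with miR-200 and miR-205 gave a median of -0.03. Of 18 measured genes, 0 passed adjusted p 0.05 in limma, and 1 was higher and 1 lower at an unadjusted p under 0.05, against 3.93% and 2.89% of all genes. OVOL1, an epithelial repressor and the higher gene, read 6.81, 6.68 and 6.74 in control and 6.98, 7.29 and 6.92 in SCGB3A1 (0.32 ± 0.10 SE, limma adjusted p = 0.72). The lower gene was ZEB1 (-0.25). ZEB1 and ZEB2 are also in the list of miR-205 targets, and SNAI2 (-0.09) is in that of p63 targets, so these lists are not separate. FN1, fibronectin, read -0.26 for its probe set with the smallest p and 0.00 for its brightest, and QKI, an RNA-binding protein, read -0.17 and -0.09. CDH1, the gene of E-cadherin, read 6.27 in control and 6.28 in SCGB3A1, and EPCAM read 6.19 and 6.18. VIM, the intermediate filament of mesenchymal cells, read 14.42 in control and 14.37 in SCGB3A1.

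Among the proteins that make microRNAs, 19 of 20 were measured and 0 passed adjusted p 0.05 in limma. At an unadjusted p under 0.05, 2 were lower and 0 higher, against 2.89% and 3.93% of all genes, with a median of -0.02. DICER1, the enzyme that cuts the hairpin's loop, read 8.97, 9.31 and 8.91 in control and 8.79, 8.84 and 8.73 in SCGB3A1 by its brightest probe set. That is -0.28 ± 0.10 (SE, limma adjusted p = 0.76), and a dimmer probe set read -0.25. AGO2, the Argonaute that carries the mature strand, read -0.18. TUT7, a uridylyltransferase, read -0.20 for its probe set with the smallest p and -0.02 for its brightest, and TNRC6C, a silencing cofactor, read -0.19 and -0.11.

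MIR205 could be set beside the other microRNA genes and host transcripts on the array. Of 318 probe sets that list such a gene, 75 list it alone and 243 with other symbols. Adjusted p 0.05 was passed by 1, against 0.0183% of all probe sets. It lists MIR675 and H19 and was higher, by 0.79 ± 0.08 (SE, limma adjusted p = 0.0084). Another probe set of this pair read 0.31. The call was lost when control replicate 1 or any single SCGB3A1 replicate was left out. Next by p came probe sets listing MIR4640 with DDR1 (0.38) and MIR612 with NEAT1 (0.48), neither of which passed. The others of DDR1 read 0.17 to 0.36, and those of NEAT1 -0.20 to 0.48. Of the 318 probe sets, 25 were higher and 11 lower at an unadjusted p under 0.05, against 3.09% and 3.10% of all probe sets. Several of the 25 list the same genes, among them NEAT1, DDR1, H19 and INTS11, so they do not stand for as many separate genes. Of the 75 probe sets that list a single gene, that of MIR100HG, host of the miR-100 cluster, had the smallest p and was lower. It read 8.97, 8.99 and 9.16 in control and 8.74, 8.59 and 8.76 in SCGB3A1 (-0.35 ± 0.08 SE, limma adjusted p = 0.48). A dimmer probe set of MIR100HG read 0.13. Next by p came probe sets of MIR570HG (-0.23), MIR3945HG (-0.19) and MIR1915HG (0.16). The other single-gene probe sets of these read 0.04 for MIR570HG, 0.12 for MIR3945HG, and -0.01 and 0.00 for MIR1915HG.

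The genes most like MIR205 across the 6 arrays were sought by the root mean square distance between log2 profiles, each set to its own mean. Candidates were 23453 probe sets with a single symbol and a mean above the median, whose median distance was 0.37. The nearest 10 genes lay at 0.082 to 0.15. They were HLA-DRA (0.082), CD36 (0.095), KRT5 (0.10), MAF (0.12), CCNG2 (0.13), AKR1B10 (0.13), CLDN19 (0.14), KRT14 (0.14), CLDN1 (0.15) and TNNT3 (0.15). All 10 were higher in every SCGB3A1 array than in every control, as a profile near that of MIR205 must be, and their differences ran from 0.44 to 0.66. HLA-DRA read 7.12, 6.83 and 6.98 in control and 7.66, 7.63 and 7.50 in SCGB3A1, with the same low control replicate 2 as MIR205. MAF, a transcription factor, read 8.71, 8.48 and 9.02 in control and 9.36, 9.45 and 9.09 in SCGB3A1. KRT5 and MAF share that low array too, while CCNG2 does not, with 10.15, 10.26 and 10.24 in control. MIR205HG lay at 0.23, which would rank 150 among the candidates. HLA-DRA, AKR1B10 and the keratins belong to families of similar sequence and their readings are uncertain.

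**Figure D4:**
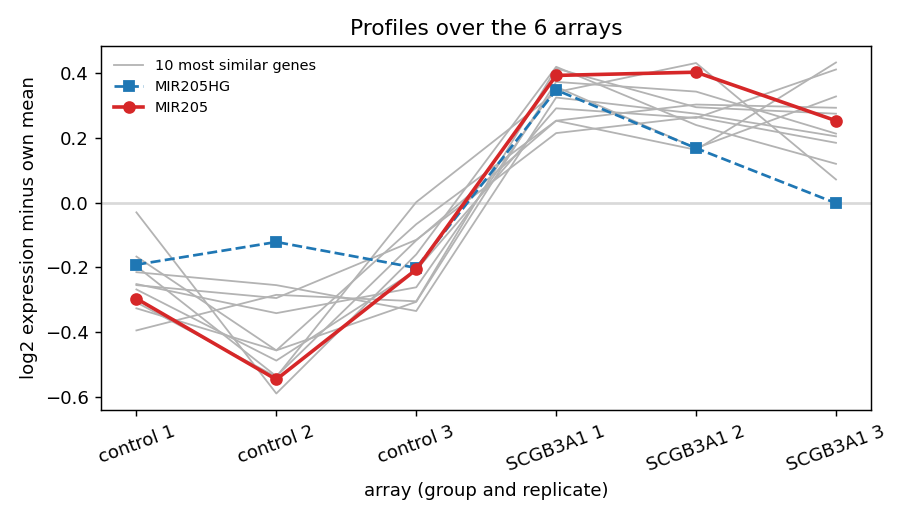
Log2 expression minus the probe set's own mean (vertical axis) in the 6 arrays (horizontal axis) for MIR205 (red), MIR205HG (blue, dashed) and the 10 genes with the nearest profiles (grey). MIR205 and 8 of the 10 grey lines are lowest in control replicate 2, and MIR205HG is not.

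Of 12 measured squamous and basal breast markers, 1 passed, KRT15 (0.97 ± 0.08 SE, limma adjusted p = 0.0030). At an unadjusted p under 0.05, 4 were higher and 0 lower, against 3.93% and 2.89% of all genes. They were KRT15, KRT5, KRT14 and TRIM29, and the last 3 are also in the list of p63 targets. The other 8 read between -0.05 and 0.16. The mean level of the list was 8.26 to 8.39 in control and 8.54 to 8.60 in SCGB3A1. The luminal markers (12 measured) lay at 7.85 to 7.88 and 7.82 to 7.89, the haematopoietic markers (9) at 6.92 to 6.98 and 6.96 to 7.04, and the endothelial markers (8) at 6.80 to 6.84 and 6.74 to 6.85. The fibroblast markers (9), several of which gave a bright signal in both groups, lay at 9.77 to 9.86 and 9.90 to 9.94, and 0 of them passed. At an unadjusted p under 0.05, 3 were higher, DCN (0.40), LUM (0.52) and PDGFRB (0.26), and 1 was lower, COL1A1 (-0.21), against 3.93% and 2.89% of all genes. The groups did not overlap in any of the 4, where 7.09% of all genes lay above all controls and 5.24% below. FAP read -0.03 and THY1 0.00. Detection calls were not used here, so which of these markers are present was not analysed. In bulk RNA a change in the number of basal-like cells and a change in RNA per cell cannot be told apart, and their part in the difference of MIR205 was not tested.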

How the data were processed

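Gene expression was measured with Affymetrix Human Genome U133 Plus 2.0 arrays, 1 per sample. The authors normalized the scanner files by RMA (background correction, quantile normalization and probe summary), and deposited log2 values, which ran from 5.66 to 14.66. The precision is limited by the number of arrays. Probe sets were named from GEO's platform annotation, with symbols checked by gene identifier against RefSeq (GRCh38.p14): 41091 had 1 symbol, 1801 several and 11721 none, and 62 control probe sets were left out. Groups were compared over all 54613 probe sets with limma 3.58.1 in R 4.3.3 (lmFit, eBayes, Benjamini-Hochberg), as in the study's methods, two-sided. The script was tested on simulated data. The samples are described as biological replicates, without saying whether each was a separate transduction, so a p-value reflects only how these samples vary.

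The locus and the gene lists (173 distinct genes, 159 matched) were chosen with earlier results of these data known. Named were the locus, SCGB3A1, called genes and up to 4 genes with the smallest p in each list, up to 4 single-symbol microRNA probe sets with the smallest p, and the 10 genes nearest to MIR205; chromosomal neighbours and further list members were chosen after their values were seen. List medians and unadjusted counts use a gene's probe set with the highest mean, and a gene was called if any of its probe sets passed. Sequences are RefSeq's (GRCh38.p14). The alternatives are given in the closing section.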

Additional observations from a re-analysis of the deposited data

How the results depend on the processing

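The differences of MIR205 and MIR205HG kept their sign in all 9 alternatives: 0.60 to 0.77 and 0.25 to 0.43 with 1 array left out. Their median, 0.52, was 0.70 without dim probe sets, where MIR205 alone is left. Of the p63 targets, 2 were called with an intensity trend in the variance (CLCA2 and KRT5) and 1, KRT5, by the study's signature thresholds (log2 difference beyond 0.5, p under 0.05, adjusted p under 0.25). The counts for the other 4 lists stayed at 0 in every alternative. The called microRNA probe set was lost without _s_at and _x_at probe sets, as that filter removes it. With 1 array left out, the count was 0 without control replicate 1 or any single SCGB3A1 replicate. It was 1 without control replicate 2 or 3. Over all probe sets, 10 were called. With array weights there were 16, with the intensity trend 19, without dim probe sets 6, by the signature thresholds 17, and 1 to 6 with 1 array left out. With the replicate number as a block there were 4. The labels do not say whether the numbers pair the arrays. Deviations of same-numbered arrays correlated at 0.14, -0.14 and -0.09, and those of differently numbered arrays at -0.243 to 0.249. With so few arrays these values cannot decide it. In fits chosen after seeing the data, the p63 targets higher at an unadjusted p under 0.05 numbered 11 to 13 with 1 array left out, and the miR-205 targets lower 2 to 4. The cause of these changes was not tested. The median over TP63 probe sets was not run. Signal over background was not analysed.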
